A study of Mus musculus with 21 samples.

Results

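The genes described here carry out cholesterol synthesis, uptake, storage and efflux in mouse macrophages. They were chosen by name, as 30 symbols from the 34573 gene rows of the count table, and all 30 were found, 1 of them (Sc4mol) under the older name of Msmo1. They comprised 2 regulators, 18 enzymes of the synthesis pathway, 5 genes of uptake, transport and storage, and 5 genes of efflux and oxysterols. Bulk RNA sequencing was done on bone marrow-derived macrophages (BMDMs) of C57bl/6 mice aged 12 weeks, grown for 6 days in L929 medium as the source of M-CSF. L929 is a fibroblast line whose medium carries the growth factor that turns marrow precursors into macrophages. Cells were left untreated or were given succinate or dimethyl malonate (DMM), an inhibitor of succinate dehydrogenase, for 3 h, and were then left without or with lipopolysaccharide (LPS), the bacterial ligand of Toll-like receptor 4, for 4 or 48 h. The series thus asks how added succinate, or blocked oxidation of succinate, alters resting and LPS-activated macrophages. Of the 21 libraries, the count table held 3 of untreated control cells (columns numbered 1, 3 and 4), 4 of DMM alone and 4 of succinate alone (numbered 1 to 4). The stimulated libraries were 2 of LPS for 4 h, 2 of DMM then LPS for 4 h, 1 of succinate then LPS for 4 h, 2 labelled LPS for 48 h, 2 of DMM then LPS for 48 h and 1 of succinate then LPS for 48 h. The labels do not tie the numbers of the unstimulated columns to the 4 h or the 48 h samples, so each unstimulated treatment was taken as 1 group. The labels do not say whether libraries of a group came from separate mice or cultures, and every p-value then reflects the spread of these libraries alone, which may be technical.

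Cells sense cholesterol in the membrane of the endoplasmic reticulum. When sterol is low, SREBP-2 (the product of Srebf2) is carried to the Golgi, cut, and switches on the synthesis enzymes, and when sterol is high INSIG proteins hold it back. Surplus sterol is converted in part to oxysterols, which activate the liver X receptors (LXRs; Nr1h3 encodes LXR alpha) and raise the efflux pumps Abca1 and Abcg1. In macrophages 25-hydroxycholesterol, made by Ch25h, is known both as an inhibitor of SREBP processing and as a product of activated cells with antiviral action.

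Total counts were 662186 to 1546867 per library. Levels are given as CPM, the count of a gene relative to the total of its library after scaling by the trimmed mean of M values (TMM), and differences as log2 fold changes with their standard error from edgeR's quasi-likelihood test, with Benjamini-Hochberg adjustment over 6812 genes and an adjusted p under 0.05 as the threshold. The LPS-induced gene Saa3 was at 23.9 to 109 CPM in the 11 unstimulated libraries and at 52967 CPM or more in 9 stimulated ones. The library labelled LPS 48 h number 1 went against its label, with Saa3 at 34.0 CPM and Il1b at 0.895 CPM. Its counts differed from those of DMM number 2 by a chi-square of 1.25 per degree of freedom, while the next closest pair of libraries reached 3.44. It was kept out of the fit, which left 20 libraries, and values with it are given where it moves a result. Of 9 listed macrophage symbols 8 were in the table (F4/80 under its older symbol Emr1) and above 0 in every library. Their sum was 53969 to 91050 CPM without and 78476 to 173838 CPM with LPS, most of it Lyz2 (43339 to 134745 CPM). The others did not all move with the sum: Cd68 had a median of 1634 CPM without and 357 CPM with LPS, Emr1 1643 and 17727 CPM, and Mertk was at 3.17 to 38.3 CPM. The T and NK cell list summed to 0 to 3.17 CPM, the dendritic cell list to 0 to 12.7 CPM, and the erythroid list was at 0 in every library of the fit. The B cell list summed to 55.6 to 164 CPM without LPS and 0 to 2.13 CPM with LPS, nearly all of it Ighm, and Cd79a was at 0 in every library. The neutrophil list went from at most 1.58 CPM without LPS to 7.72 to 565 CPM with LPS, nearly all of it S100a8, and Ly6g and Ltf were at 0 in every library. The part of these lists, and of changes in cell state that share their genes, in the results below was not tested. In bulk libraries fewer cells of a type and less RNA per cell cannot be told apart.

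Promoter sequence is shown for 5 of the genes because the synthesis genes and Insig1 fell after LPS while Abca1 and Ch25h rose, and the letters of their promoters differ. The windows are those of RefSeq on GRCm38.p6, from 250 bases before the gene's start to 50 bases after it, and 24 of the 30 genes had such a window, of 27025 genes with one. Each line gives the 250 bases before the start, 5′ to 3′ on the gene's strand. They lie at chr13:119690101-119690350 (plus strand) for Hmgcs1, chr8:64733579-64733828 (minus strand) for Sc4mol, chr5:28071162-28071411 (plus strand) for Insig1, chr4:53159896-53160145 (minus strand) for Abca1 and chr19:34475149-34475398 (minus strand) for Ch25h. Capitals mark the letters of a sterol regulatory element (SRE; TCACNCCAC), of the NF-Y motif (CCAAT) and of the GC box bound by Sp1 (GGGCGG), each searched on both strands, so that ATTGG and CCGCCC are the same motifs read from the other strand. No matches of different motifs overlapped in the windows of these genes.
Hmgcs1: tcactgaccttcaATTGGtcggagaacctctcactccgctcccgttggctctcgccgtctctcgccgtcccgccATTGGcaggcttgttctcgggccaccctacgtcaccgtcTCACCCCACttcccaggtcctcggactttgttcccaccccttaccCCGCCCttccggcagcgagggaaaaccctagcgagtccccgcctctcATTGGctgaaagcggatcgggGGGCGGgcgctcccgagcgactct
Sc4mol: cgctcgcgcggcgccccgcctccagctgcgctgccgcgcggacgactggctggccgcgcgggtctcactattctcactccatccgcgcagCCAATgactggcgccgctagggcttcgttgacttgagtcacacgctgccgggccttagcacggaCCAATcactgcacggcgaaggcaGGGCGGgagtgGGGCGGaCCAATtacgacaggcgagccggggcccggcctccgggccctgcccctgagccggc
Insig1: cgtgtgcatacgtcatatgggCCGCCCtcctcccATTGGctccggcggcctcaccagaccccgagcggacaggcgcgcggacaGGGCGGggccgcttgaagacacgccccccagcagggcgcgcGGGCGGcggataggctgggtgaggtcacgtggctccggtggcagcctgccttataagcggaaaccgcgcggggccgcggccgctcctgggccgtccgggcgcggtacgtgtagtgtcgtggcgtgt
Abca1: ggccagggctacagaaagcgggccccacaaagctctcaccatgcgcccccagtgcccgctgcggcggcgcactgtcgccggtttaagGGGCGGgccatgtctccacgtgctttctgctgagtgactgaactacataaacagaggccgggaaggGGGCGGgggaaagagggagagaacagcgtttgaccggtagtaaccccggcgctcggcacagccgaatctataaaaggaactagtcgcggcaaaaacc
Ch25h: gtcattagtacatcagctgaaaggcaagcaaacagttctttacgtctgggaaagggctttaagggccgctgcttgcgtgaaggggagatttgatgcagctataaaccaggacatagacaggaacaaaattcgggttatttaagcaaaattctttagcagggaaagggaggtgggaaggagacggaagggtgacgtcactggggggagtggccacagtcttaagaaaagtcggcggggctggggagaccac

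The synthesis genes had NF-Y letters in 14 of 15 windows (93.3%), against 42.7% of the 4917 genes that were tested for expression and had a window, and 41.1% of all genes with one. The exception was Acat2, and Dhcr7 held them only in an alternative window. GC box letters were also in 14 of 15 synthesis genes (93.3%; the exception was Pmvk), against 71.2% of the tested genes and 38.2% of all. None of the 4 efflux and oxysterol genes with a window (Abca1, Apoe, Ch25h, Nr1h3) had NF-Y letters, and 1 of them, Abca1, had a GC box. Of these 4, Abca1, Ch25h and Nr1h3 were called higher after 4 h of LPS and Apoe lower. Both kinds of letters were in all 3 uptake, transport and storage genes with a window (Mylip, Npc2, Soat1). None of these 3 was called after 4 h of LPS. Whether the letters go with the direction of change was not tested. The SRE letters matched in 1 of the 24 genes, Hmgcs1, from 137 to 129 bases before the start, against 1.55% of the tested genes. The spelled SRE is strict, and a missing match says only that these letters are not in this window. An E-box (CACGTG) was in 5 of the 24 genes (Abca1, Dhcr7, Hsd17b7, Insig1 and Sc5d), against 12.7% of the tested genes and 8.09% of all. A match is a description of the letters and not a measured binding site.

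**Figure D1:**
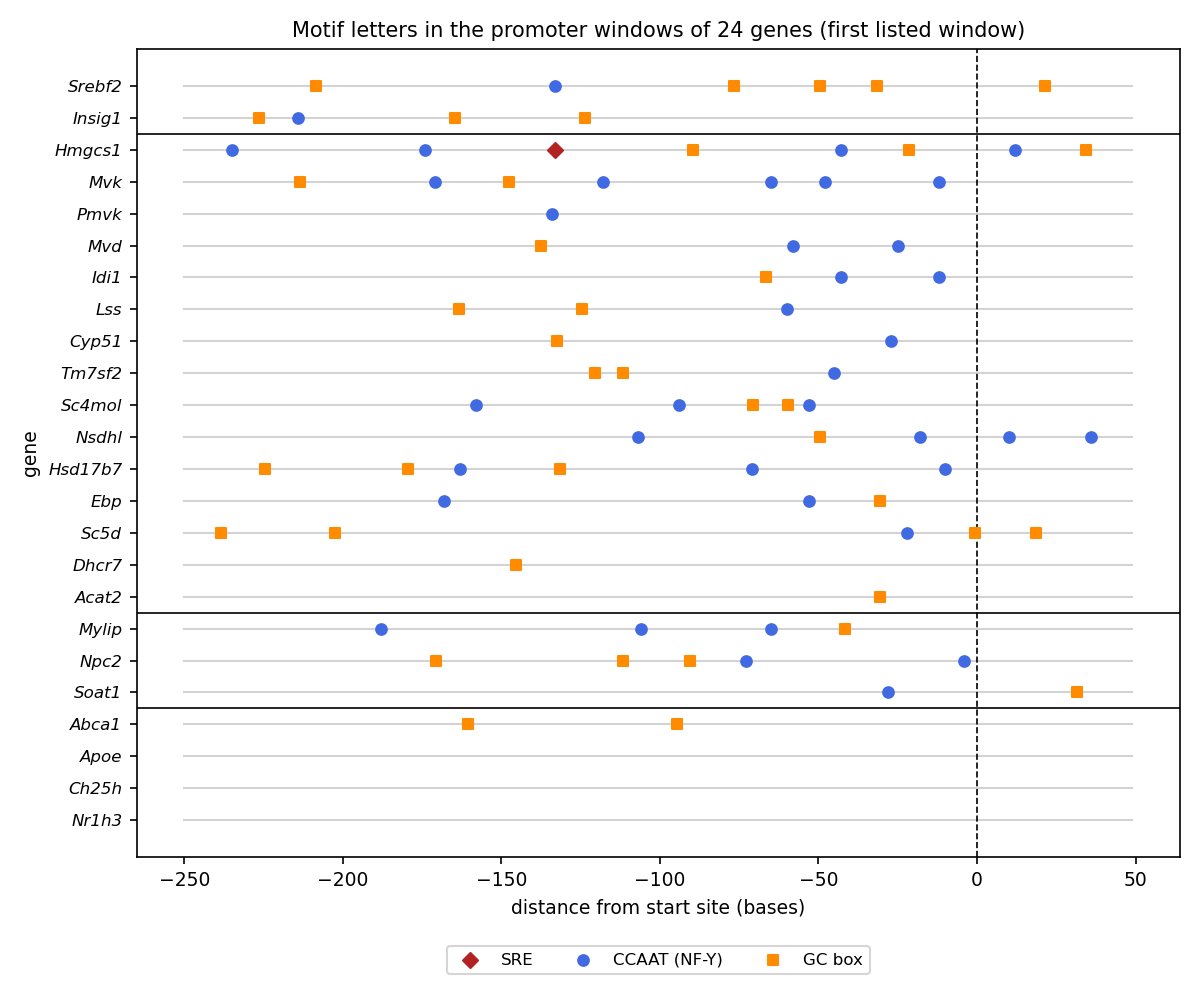
Positions of SRE (red diamonds), NF-Y (blue circles) and GC box letters (orange squares) in the RefSeq promoter windows of 24 genes; the x axis is the distance in bases from the start site and each row is a gene, with its first listed window, grouped as regulators, synthesis, uptake and storage, and efflux. NF-Y letters stand in most synthesis rows, in all 3 uptake and storage rows and in none of the 4 efflux rows, and the 1 SRE match is in Hmgcs1.

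Per length of exon in GENCODE vM21, the 5 highest levels in control cells belonged to efflux, transport, storage and sensing genes, and every synthesis gene was below them. Apoe, the apolipoprotein that accepts cellular cholesterol, was at 3424 ± 1079 CPM per kb (SD, n = 3), and Npc2, the lysosomal sterol carrier, at 294 CPM per kb. Abcg1, the pump that moves sterol to HDL, followed at 78.3, Insig1 at 58.4 and Soat1, which esterifies cholesterol for storage, at 36.1 CPM per kb. Among synthesis genes Sc4mol (C4 demethylation) was highest at 23.5 CPM per kb and Tm7sf2 lowest at 0.641. Nr1h3 was lowest of all 30 genes at 0.269 CPM per kb. Exons shared bases with another annotated gene over 26.7% of Fdps, 18.3% of Fdft1 (with Ctsb), 12.1% of Hmgcs1, 12.1% of Tm7sf2, 11.5% of Ch25h and under 10% in 5 others, so these values are uncertain, since use of strand in counting is not given in the sources used here. Mvk and Tm7sf2 did not pass the filter on low counts, which left 28 genes tested. Mvk was at 1.08 to 12.7 CPM and Tm7sf2 at 0 to 6.34 CPM over the 20 libraries.

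LPS for 4 h lowered both regulators and most of the synthesis pathway in otherwise untreated cells. Of the 28 tested genes 3 rose and 18 fell against control, where 27.9% of all genes tested were called, 15.4% higher and 12.5% lower. Insig1, the sterol-dependent anchor of the SREBP system and itself an SREBP target, was at 164, 192 and 186 CPM in controls 1, 3 and 4 and at 36.3 and 22.6 CPM after LPS. It fell by 2.61 on the log2 scale (SE 0.50, edgeR adjusted p = 0.000400). Srebf2 was at 39.8, 59.8 and 31.3 CPM in controls and 20.3 and 23.7 CPM after LPS, and fell by 0.98 (SE 0.34, edgeR adjusted p = 0.0279). The groups did not overlap for either gene, as for 26.2% of all genes tested in this direction. The call for Srebf2 was lost when control 3, LPS 4 h number 1 or LPS 4 h number 2 was left out, with an adjusted p of at most 0.181.

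Of the 16 tested synthesis genes 13 fell and none rose, with a median of -2.41 on the log2 scale against -0.07 over all genes tested. All 16 were lower in both LPS libraries than in every control, where 26.2% of all genes tested showed that. The summed level of the 18 synthesis genes was 762, 686 and 687 CPM in controls 1, 3 and 4 and 146 and 112 CPM in the LPS libraries. Fdps, which makes farnesyl diphosphate at the branch point to sterols and prenylated proteins, was at 62.2, 46.9 and 71.6 CPM in controls and at 3.20 and 4.30 CPM after LPS. Its difference, -3.97 (SE 0.60, edgeR adjusted p = 1.62e-05), was the largest fall among the synthesis genes. Idi1, the isomerase of the step before it, was at 48.0, 49.3 and 58.5 CPM in controls and 5.33 and 4.30 CPM after LPS, and fell by 3.40 (SE 0.59, adjusted p = 9.78e-05). Cyp51, the lanosterol demethylase that acts on the first sterol of the pathway, was at 50.0, 48.1 and 57.5 CPM in controls and 9.60 and 7.53 CPM after LPS. It fell by 2.58 (SE 0.42, edgeR adjusted p = 1.36e-05), and Sc5d, a late desaturase, also fell, with -2.46 (SE 0.41, adjusted p = 2.14e-05). The falls thus covered the early mevalonate steps (Hmgcs1, Pmvk, Mvd, Idi1, Fdps), squalene and its cyclisation (Sqle, Lss), and the sterol steps (Cyp51, Sc4mol, Nsdhl, Sc5d, Dhcr7), beside Acat2, which makes acetoacetyl-CoA. Their log2 differences ran from -3.97 to -2.02. Nsdhl and Acat2 had only 3 counts over both LPS libraries, and their control levels were higher by 13.7 times (95% exact counting interval 4.46 to 68.1) and 5.95 times (1.83 to 30.7). Fdft1 (-1.59), Hsd17b7 (-1.98, from 3 counts) and Ebp (-0.62) did not pass the test. Leaving out LPS 4 h number 2 left 14 of the 21 calls among the 28 genes, and among the synthesis genes ended those of Acat2, Lss and Pmvk, while leaving out number 1 ended those of Acat2 and Sqle. The highest adjusted p of these 4 genes was then 0.129, 0.117, 0.0864 and 0.0823.

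**Figure D2:**
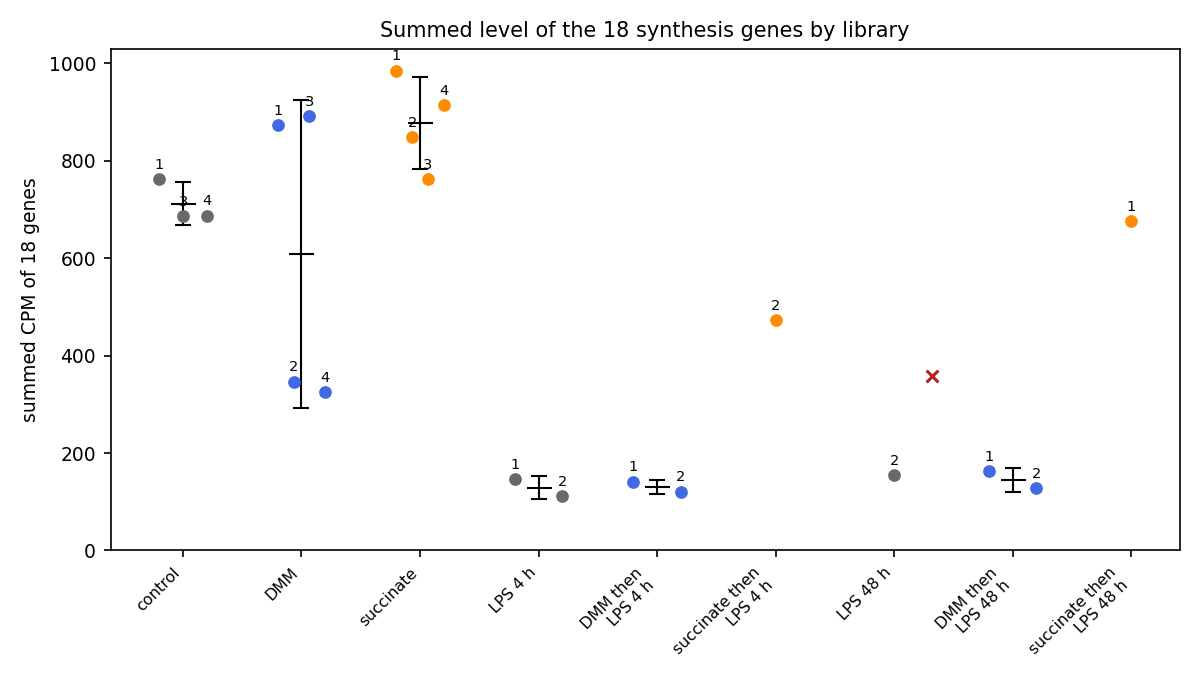
Summed CPM of the 18 synthesis genes (y axis) in each library, by group (x axis); points carry the column number, bars give the mean and SD where a group has 2 or more libraries, and the red cross is the library labelled LPS 48 h number 1, kept out of the mean. Control libraries stand at 686 to 762 CPM, LPS libraries without succinate at 112 to 163 CPM, the libraries of succinate then LPS at 472 and 676 CPM, and the DMM libraries split into 873 and 892 against 346 and 325 CPM.

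Efflux and oxysterol genes moved apart from one another after 4 h of LPS. Abca1, the pump that loads cholesterol on apolipoprotein A-I, was at 43.9, 51.6 and 66.6 CPM in controls and 213 and 207 CPM after LPS. It rose by 1.95 on the log2 scale (SE 0.32, edgeR adjusted p = 1.80e-05), with no overlap, as for 1831 of all 6812 genes tested in this direction. Ch25h was at 3.06, 3.52 and 13.1 CPM in controls and 138 and 123 CPM after LPS, a rise of 4.26 (SE 0.64, edgeR adjusted p = 9.07e-05) and the largest among the 28 genes. Nr1h3 was called higher on 12 counts after LPS against 2 in controls, a ratio of 9.07 (95% exact counting interval 2.02 to 83.5; edgeR adjusted p = 0.0255). That call was lost without control 3 or LPS 4 h number 2, where its adjusted p reached 0.235. Apoe went the other way, from 4699, 9042 and 8223 CPM in controls to 3431 and 3378 CPM, a difference of -1.10 (SE 0.37, edgeR adjusted p = 0.0232), which was lost in 4 of 5 fits that left out 1 library (controls 3 and 4 and both LPS libraries; adjusted p up to 0.141). Abcg1 was at 719, 549 and 445 CPM in controls and 399 and 364 CPM after LPS and did not pass the test (-0.58, SE 0.35). Abca1 was thus higher and Abcg1 lower in value after LPS, and the difference between these pumps was not tested.

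In the group of uptake, transport and storage, 2 of 5 genes fell at 4 h and none rose. Stard4, a cytosolic sterol carrier, was at 21.4, 23.5 and 25.2 CPM in controls and 5.33 and 3.23 CPM after LPS, a difference of -2.42 (SE 0.55, edgeR adjusted p = 0.000931). Npc1, which exports cholesterol from lysosomes, was at 44.9, 69.2 and 43.4 CPM in controls and 26.7 and 21.5 CPM after LPS, a difference of -1.11 (SE 0.29, adjusted p = 0.00359; 0.0703 without LPS 4 h number 2). Its lysosomal partner Npc2 (0.67), Soat1 (-0.20) and Mylip (-0.52), an E3 ubiquitin ligase, did not pass the test. Of 25 other genes of the pathway 21 were tested, of which 8 fell and none rose. Those with the smallest p were Nceh1 and Lipa, which hydrolyse cholesteryl esters, the HDL receptor Scarb1 and the sterol reductase Lbr, at -3.00, -2.82, -2.46 and -2.42.

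At 48 h the comparison rests on the 1 LPS library whose Saa3 and Il1b were high, number 2, against the same 3 controls. Of 28 genes 3 rose and 13 fell, where 20.8% of all genes were called (12.5% higher, 8.29% lower). The synthesis sum was 154 CPM, and 10 of 16 synthesis genes fell, with a median of -2.00 against -0.09 over all genes. The differences were -2.56 for Cyp51 (SE 0.55, edgeR adjusted p = 0.000681), -3.36 for Fdps (SE 0.73, adjusted p = 0.00142) and -2.46 for Sc4mol (SE 0.58, adjusted p = 0.00258). Dhcr7, the last reductase of the pathway, had 3 counts and was higher in controls by 9.17 times (95% exact counting interval 3.02 to 45.5; adjusted p = 0.000821). Insig1 was at 29.9 CPM and fell by 2.59 (SE 0.67, edgeR adjusted p = 0.00727), and Stard4 and Npc1 also fell, with -1.77 and -1.36. The calls of Stard4 and of the synthesis gene Idi1 were lost when any 1 control was left out. Among synthesis genes, Hmgcs1 was also lost without control 3 or 4, and Sqle without control 1 or 4. Abca1 at 176 CPM (1.70, SE 0.39, adjusted p = 0.00142) and Ch25h at 99.4 CPM (3.87, SE 0.73, adjusted p = 0.00114) rose. Nr1h3 stood at 32.8 CPM, with 34 counts against 2 in controls, a ratio of 46.3 (95% exact counting interval 11.9 to 398; adjusted p = 1.42e-05). With the library labelled LPS 48 h number 1 included, 9 of the 28 genes were called, 6 of them lower. Its own values were unlike those of number 2, with a synthesis sum of 358 CPM, Insig1 at 75.2 CPM, Abca1 at 77.0 CPM, Ch25h at 41.2 CPM and Nr1h3 at 0.895 CPM. Of the other pathway genes 7 of 21 fell and none rose. Between 48 h and 4 h of LPS no member was called, where 1 gene of all tested (0.0147%) passed, 316 had an unadjusted p under 0.05, and DESeq2 called 0 members and 4 genes in all.

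**Figure D3:**
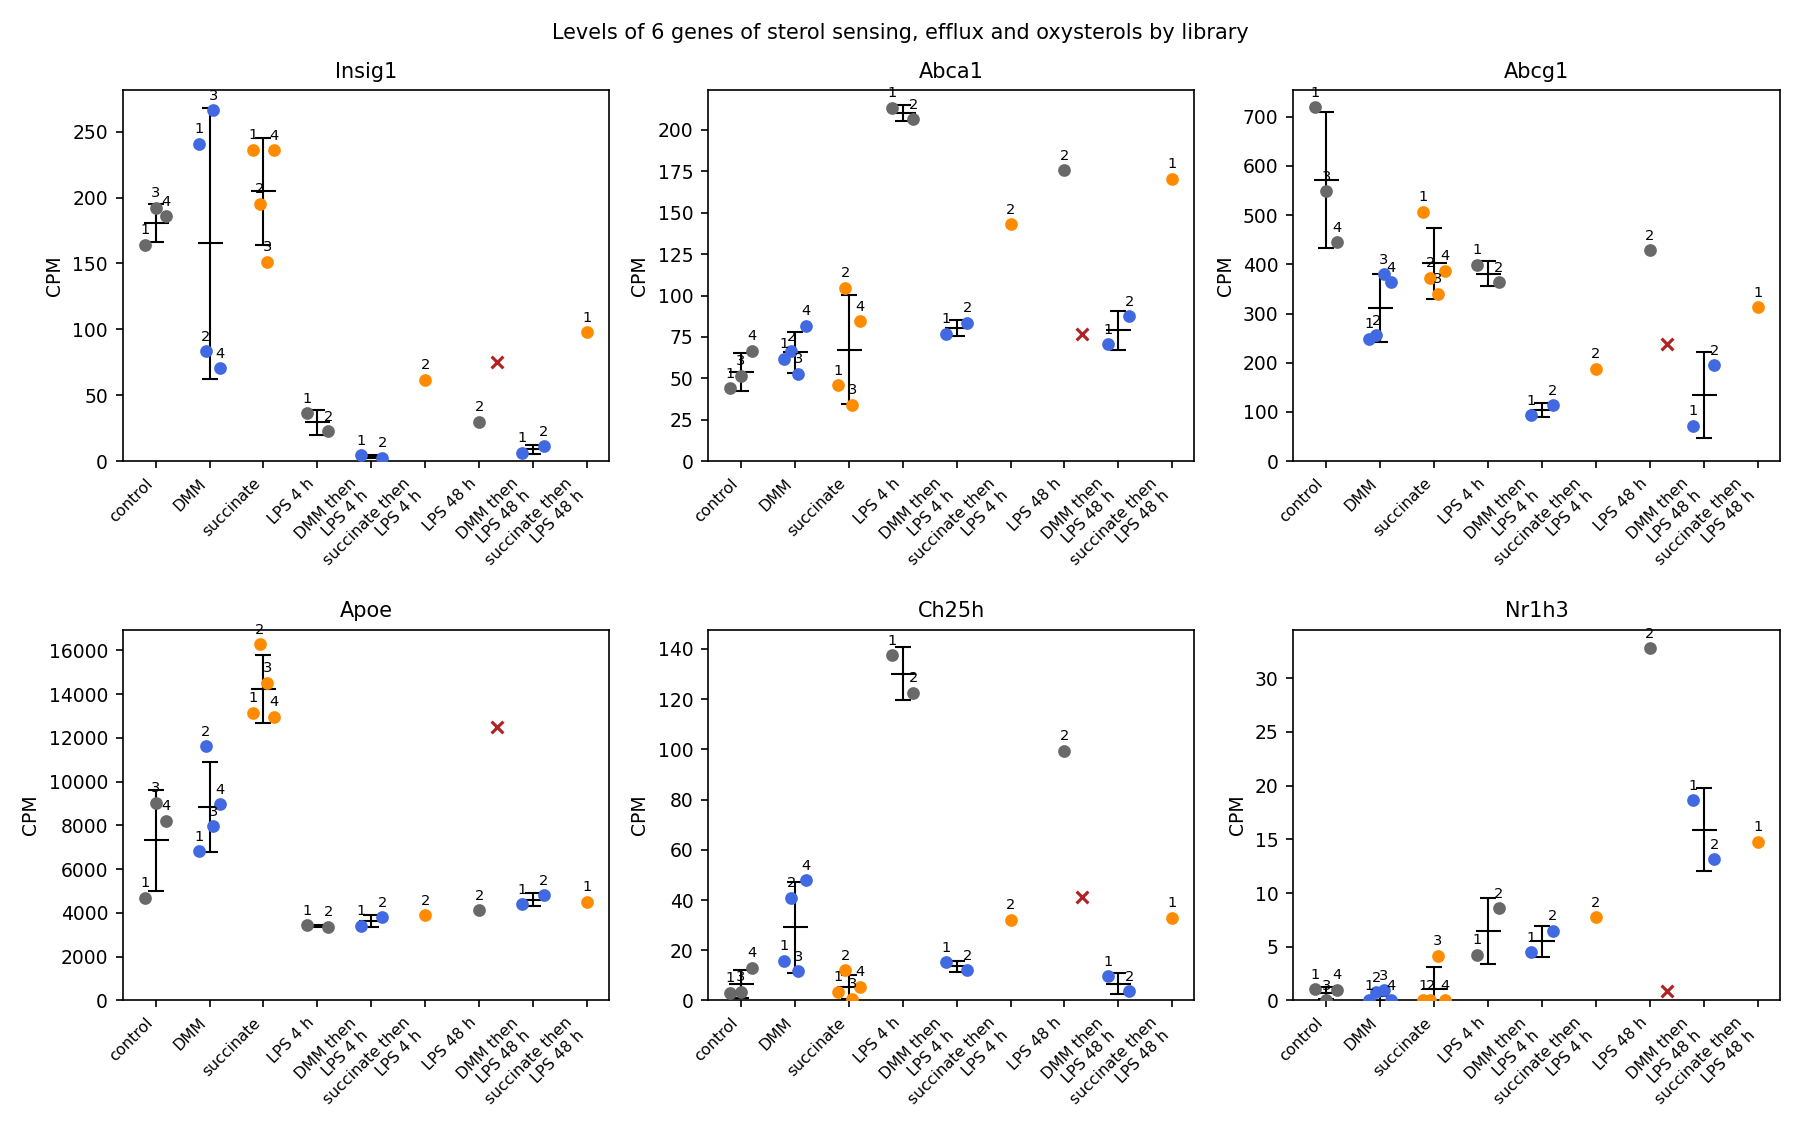
CPM (y axes, each from 0) of Insig1, Abca1, Abcg1, Apoe, Ch25h and Nr1h3 in each library by group (x axes); points carry the column number, bars give mean and SD, and the red cross is the library labelled LPS 48 h number 1. Abca1 and Ch25h are highest in the libraries of LPS alone other than the red cross, Insig1 is lowest in the DMM then LPS libraries, and Nr1h3 is above 13 CPM only in the 48 h libraries that responded to LPS.

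Without LPS, neither agent changed a member by the test. DMM alone against control called 0 of 28, where 0.558% of all genes (38) were called and 803 had an unadjusted p under 0.05. The DMM libraries were not alike: the synthesis sum was 873 and 892 CPM in numbers 1 and 3 and 346 and 325 CPM in numbers 2 and 4, so that the controls lay between the pairs. Insig1 had the same split, with 241 and 266 CPM in numbers 1 and 3 and 83.5 and 70.4 CPM in numbers 2 and 4. Ch25h had the reverse, with 15.8 and 11.7 CPM in numbers 1 and 3 and 41.0 and 47.8 CPM in numbers 2 and 4. Ch25h was also higher in the even-numbered libraries of the other treatments, at 3.06 and 3.52 CPM in controls 1 and 3 against 13.1 CPM in control 4, and at 3.53 and 0.694 CPM in succinate numbers 1 and 3 against 12.0 and 5.48 CPM in numbers 2 and 4. Abca1 had this order too, most widely after succinate, with 45.8 and 34.0 CPM in numbers 1 and 3 and 105 and 84.6 CPM in numbers 2 and 4. The synthesis sum and Insig1 did not split by number in controls or succinate. Unstimulated samples carry the replicate names 1A or 1B, as the 4 h samples do, or 1 or 2, as the 48 h samples do. The labels do not state which column number belongs to which name, or tie the numbers to a batch, a time or an animal. DMM and succinate samples are listed as 1A, 1, 1B and 2, and control samples as 1A, 1B and 2, without 1. The control columns lack number 2. Read in that order, odd numbers would carry the 4 h names and even numbers the 48 h names. Whether the split follows these sets was not tested, and an unstimulated group may hold cells of both. Against controls Ch25h differed by 2.17 (SE 0.65, edgeR adjusted p = 0.172), and DMM libraries 1, 2 and 4 were above every control. In columns of the same number DMM was above control each time, with 15.8 against 3.06, 11.7 against 3.52 and 47.8 against 13.1 CPM. DESeq2, which adjusted over 2586 genes here, called Ch25h (adjusted p = 0.0281), as did edgeR without DMM number 3 (adjusted p = 0.0450). So did edgeR on the unstimulated libraries alone with the column number as a replicate block (1.83, adjusted p = 0.00802). Abcg1 was at 249, 256, 380 and 364 CPM in DMM libraries 1 to 4, all below the controls, with a difference of -0.87 (SE 0.28, edgeR adjusted p = 0.162; -0.77 and 0.0468 with the replicate block). The library labelled LPS 48 h number 1 was close to DMM number 2 in these genes also, as its values above show.

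Succinate alone against control called 0 of 28 members and 0 genes in all (0%), while 363 genes had an unadjusted p under 0.05 and DESeq2 called 0 members and 2 genes. With the column number as a replicate block 0 members and 6 genes were called. The synthesis sum was 985, 849, 762 and 914 CPM in succinate libraries 1 to 4, and the median difference of the 16 synthesis genes was 0.31 against 0.03 over all genes. Apoe was at 13148, 16295, 14525 and 12963 CPM, above every control, with a difference of 0.96 (SE 0.31, edgeR adjusted p = 0.785). DMM against succinate called 0 of 28 members, where 0.220% of all genes (15) were called and 575 had an unadjusted p under 0.05. Ch25h differed by 2.58 (SE 0.60, edgeR adjusted p = 0.123) between DMM and succinate. DESeq2 called it (adjusted p = 0.00742), as did edgeR without DMM number 3 (adjusted p = 0.0331), without succinate number 2 (adjusted p = 0.0432) or with the replicate block (adjusted p = 3.23e-05).

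In cells given DMM first, LPS also lowered regulators and synthesis genes. After 4 h against DMM alone, 1 of 28 genes rose and 18 fell, where 34.1% of all genes were called (15.8% higher, 18.3% lower). Insig1 was at 4.50 and 2.79 CPM after DMM then LPS and fell by 5.38 (SE 0.63, edgeR adjusted p = 8.81e-07). Srebf2 was at 10.1 and 8.36 CPM, against 58.6, 34.3, 62.4 and 37.4 CPM in DMM libraries 1 to 4, and fell by 2.32 (SE 0.35, adjusted p = 3.26e-06). Neither gene overlapped between the groups, as was so for 1797 of all 6812 genes tested with lower values and 1724 with higher ones. Of the 16 synthesis genes 13 fell and none rose, with a median of -1.95 against -0.00 over all genes. The differences were -3.68 for Cyp51 (SE 0.45, edgeR adjusted p = 9.92e-08), -4.58 for Fdps (SE 0.60, adjusted p = 2.22e-06), -2.51 for Sc4mol (SE 0.42, adjusted p = 4.26e-05) and -3.37 for Idi1 (SE 0.56, adjusted p = 4.66e-05). Among the synthesis calls, those of Mvd and Nsdhl were each lost in 3 of 6 fits that left out 1 library, Acat2 in 2, and Lss and Sqle in 1. Stard4 had 2 counts in the DMM then LPS libraries and was higher in DMM alone by 23.4 times (95% exact counting interval 6.24 to 197). Among efflux genes Nr1h3 rose, on 15 counts against 2 (ratio 10.9, interval 2.53 to 98.1). Abcg1 and Apoe fell, with -1.59 and -1.29. The call for Apoe was lost without DMM then LPS 4 h number 1 (adjusted p = 0.0727) and that for Nr1h3 without number 2 (adjusted p = 0.0517). Abca1, at 77.0 and 83.6 CPM after DMM then LPS and 61.8, 66.4, 52.7 and 81.7 CPM in DMM libraries 1 to 4, was not called.

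After 48 h against DMM alone, 2 members rose and 18 fell, where 30.8% of all genes were called (15.4% higher, 15.4% lower). Of 16 synthesis genes 12 fell, with -4.05 for Fdps (SE 0.59, edgeR adjusted p = 9.44e-06), -2.42 for Cyp51 (SE 0.39, adjusted p = 1.33e-05), -2.44 for Dhcr7 (SE 0.45, adjusted p = 8.26e-05) and -2.84 for Idi1 (SE 0.54, adjusted p = 0.000289). Among these synthesis calls, that of Pmvk was lost in 5 of 6 fits that left out 1 library, Acat2 in 3, Sqle in 2 and Fdft1 in 1. Insig1, Srebf2 and Stard4 fell, with -4.20, -1.23 and -2.25. Npc2 was at 1711 and 3901 CPM after DMM then LPS, against 990, 984, 1323 and 1109 CPM in DMM libraries 1 to 4, and rose by 1.35 (SE 0.31, edgeR adjusted p = 0.00116). Nr1h3 also rose, from 2 counts to 37 (ratio 33.4, 95% exact counting interval 8.61 to 286), and Abcg1, Apoe and Ch25h fell, with -1.23, -0.94 and -2.12. Without DMM then LPS 48 h number 1, 12 of the 20 calls were left, and those of Abcg1, Srebf2, Apoe and Ch25h were among the lost. Over all fits that left out 1 library their highest adjusted p was 0.196, 0.109, 0.104 and 0.211, with Apoe lost also without DMM numbers 2, 3 or 4 and Ch25h without DMM numbers 2 or 4 or DMM then LPS 48 h number 2. Npc2 was lost without DMM then LPS 48 h number 2 (adjusted p = 0.0791). No member was called between 48 h and 4 h of LPS after DMM (1.17% of all genes; 827 genes had an unadjusted p under 0.05). DESeq2, which gave 19 members an adjusted p, called none either.

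**Figure D4:**
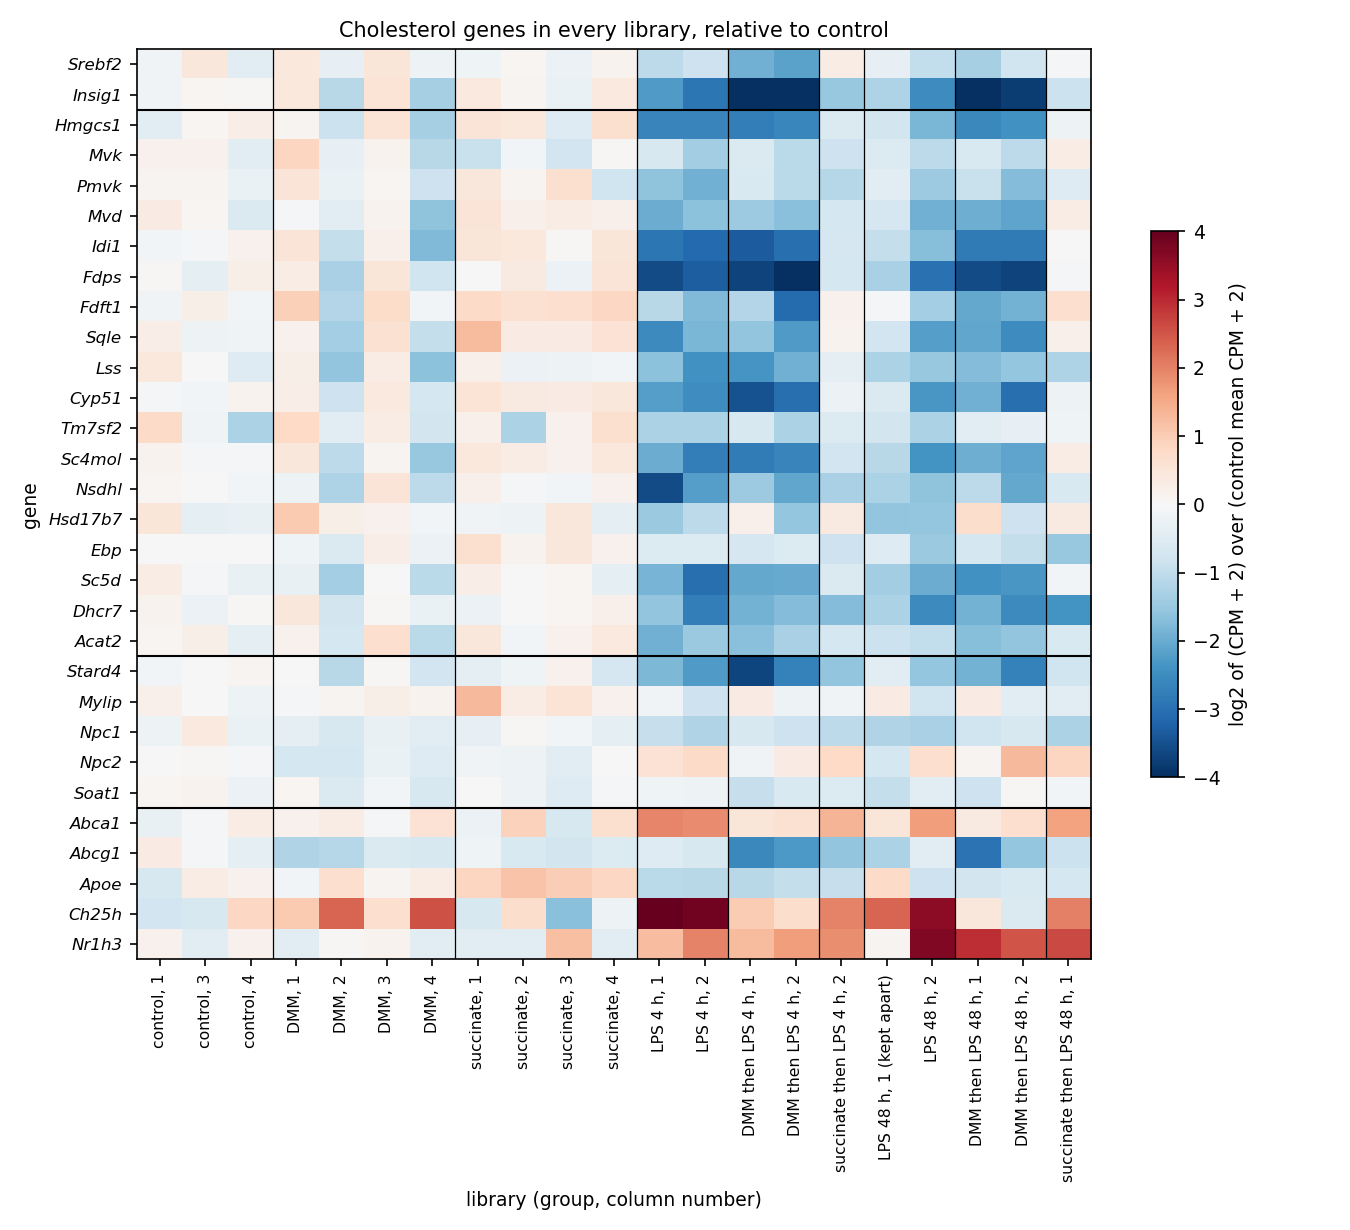
Log2 of CPM plus 2 over the control mean plus 2 for the 30 genes (rows, grouped as regulators, synthesis, uptake and storage, and efflux) in the 21 libraries (columns); blue is below and red above the control mean, with the scale ending at -4 and 4. Synthesis rows are blue in LPS libraries and paler in the libraries of succinate then LPS, and DMM libraries 2 and 4 and the library labelled LPS 48 h number 1 are paler blue in the same rows.

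Against LPS alone, DMM before LPS lowered 3 efflux and oxysterol genes and both regulators at 4 h, and no synthesis gene was called. At 4 h, 5 of 28 members fell and none rose, where 14.0% of all genes were called (3.54% higher, 10.5% lower). Ch25h was at 138 and 123 CPM after LPS and 15.2 and 12.1 CPM after DMM then LPS, and fell by 3.22 (SE 0.63, edgeR adjusted p = 0.00292). Abca1, at 213 and 207 CPM after LPS and 77.0 and 83.6 CPM after DMM then LPS, fell by 1.39 (SE 0.35, adjusted p = 0.00710). Abcg1, at 399 and 364 CPM after LPS and 93.3 and 114 CPM after DMM then LPS, fell by 1.88 (SE 0.39, adjusted p = 0.00108). The LPS libraries are those of the comparison with control cells above. In these genes the 2 libraries of each group were close and the groups lay apart. With 2 libraries per group that was common: of all 6812 genes tested, 2130 lay apart with lower and 2024 with higher values. Insig1 went from 36.3 and 22.6 CPM to 4.50 and 2.79 CPM, a difference of -2.91 (SE 0.71, edgeR adjusted p = 0.00791), and Srebf2 fell by 1.22 (SE 0.42, adjusted p = 0.0475). None of the 16 synthesis genes was called, with a median of 0.12 against 0.04 over all genes and a range from -1.25 to 1.71. Of the other pathway genes 1 rose and 1 fell, and Cyp27a1, a sterol 27-hydroxylase, rose on 19 counts against 1 (ratio 12.4, 95% exact counting interval 1.97 to 516).

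These calls depended on single libraries of small groups. Without DMM then LPS 4 h number 1 none of the 5 was called, with Abcg1 and Ch25h at adjusted p = 0.0502 and 0.0523, the highest of their fits. Without DMM then LPS 4 h number 2, Abca1, Insig1 and Srebf2 were lost, without LPS 4 h number 1 Insig1 and Srebf2, and without LPS 4 h number 2 Srebf2. The highest adjusted p was 0.108 for Abca1, 0.0775 for Insig1 and 0.211 for Srebf2. With all 21 libraries 3 of the 5 were called. The stroma list summed to 33.4 to 39.3 CPM in the DMM then LPS 4 h libraries and to 6.45 to 17.1 CPM in the LPS 4 h libraries. The higher sum lay in Dcn, at 29.7 to 36.0 against 5.38 to 7.46 CPM. Col1a1, Col1a2, Col3a1 and Pdgfra were at 0 to 3.20 CPM over both groups. The part of this list was not tested.

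At 48 h DMM then LPS was set against the 1 remaining LPS library, and Ch25h was the 1 member called, lower, where 0.807% of all genes were called and 0.661% were lower. It was at 99.4 CPM after LPS and 9.72 and 3.76 CPM after DMM then LPS, a difference of -3.82 (SE 0.79, edgeR adjusted p = 0.0399), lost when either DMM then LPS library was left out (adjusted p up to 0.147) and with all 21 libraries. Abcg1 was at 429 CPM against 72.1 and 195 CPM (-1.68, SE 0.44, adjusted p = 0.0536; DESeq2 adjusted p = 0.0164), Abca1 differed by -1.16 (adjusted p = 0.207) and Insig1 by -1.76 (adjusted p = 0.299). When the 4 h and 48 h differences were averaged, a contrast added after seeing the data, Ch25h (-3.52, SE 0.50), Abcg1 (-1.78, SE 0.29), Abca1 (-1.27, SE 0.27) and Insig1 (-2.34, SE 0.51) fell, where 17.3% of all genes were called and 11.9% were lower, and Srebf2 did not pass (-0.65). No synthesis gene was called in it, and the average was not refitted without single libraries. The edgeR adjusted p of these 4 genes was 0.000209, 6.13e-05, 0.00131 and 0.00327.

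The response to 4 h of LPS was also compared directly between cells with and without DMM, as the LPS difference after DMM minus the LPS difference without it. For 3 of 28 members this interaction was called, all lower, where 5.43% of all genes were called and 4.49% were lower. Ch25h differed by -5.39 (SE 0.89, edgeR adjusted p = 0.00263), Abca1 by -1.67 (SE 0.46, adjusted p = 0.0245) and Insig1 by -2.77 (SE 0.80, adjusted p = 0.0462). In levels, Ch25h was above every control in both LPS libraries, while the DMM then LPS libraries (15.2 and 12.1 CPM) were below DMM libraries 2 and 4 and near DMM libraries 1 and 3. The call for Ch25h was kept in all 11 fits that left out 1 library, with an adjusted p of at most 0.0309. Abca1 was lost in 7 of the 11 (up to 0.160; without controls 1 or 3, DMM number 4, or any 4 h library) and Insig1 in 8 (up to 0.185; without any control, DMM number 1, or any 4 h library). With all 21 libraries 1 of the 3 was called. No synthesis gene was called, with a median interaction of 0.35.

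Synthesis genes had higher values when succinate came before LPS. At 4 h this rests on 1 library of succinate then LPS against 2 of LPS, and 2 of 28 members rose, where 1.03% of all genes were called (0.528% higher, 0.499% lower). Fdps was at 36.0 CPM against 3.20 and 4.30 CPM (3.23, SE 0.77, edgeR adjusted p = 0.0385), and Cyp51 at 43.8 CPM against 9.60 and 7.53 CPM (2.34, SE 0.53, adjusted p = 0.0208). The lone library is assumed to vary like the other groups. The median of the 16 synthesis genes was 1.83 against -0.03 over all genes, and 15 of 16 differences were above 0. Leaving out either LPS library ended both calls (adjusted p up to 0.200 for Cyp51 and 0.315 for Fdps), and with all 21 libraries neither was called. The synthesis sum was 472 CPM after succinate then LPS, between the LPS libraries (146 and 112 CPM) and the controls. Ch25h was at 32.2 CPM against 138 and 123 CPM (-2.01, SE 0.78) and Abcg1 at 188 CPM against 399 and 364 CPM (-1.03), and neither was called in the main fit. Ch25h was called lower in a fit of the stimulated libraries alone (-1.99) and without a filter on low counts (-2.00). In the succinate then LPS 4 h library S100a8 was at 560 CPM, against 41.6 and 66.7 CPM in the LPS libraries, and its part was not tested.

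Averaged over 4 and 48 h, a contrast added after seeing the data, succinate then LPS against LPS called 8 members, all synthesis genes and all higher, where 2.10% of all genes were called and 1.10% were higher. Cyp51 rose by 2.34 (SE 0.41, edgeR adjusted p = 0.000587), Fdps by 3.26 (SE 0.56, adjusted p = 0.00106), Sc4mol by 2.20 (SE 0.42, adjusted p = 0.00291) and Sc5d by 1.93 (SE 0.39, adjusted p = 0.00370). The other 4 were Hmgcs1, Idi1, Mvd and Sqle, at 1.87 to 2.58. No regulator, transport or efflux gene was called, and Insig1 and Srebf2 averaged 1.14 to 1.39. Each time has 1 succinate then LPS library, so the average has 2 such libraries in all. Its 48 h part sets 1 library against 1 library of LPS, and the average was not refitted without single libraries.

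The agents were set against each other at 48 h, as 1 library of succinate then LPS and 2 of DMM then LPS. Of 28 members 10 rose and none fell, where 3.86% of all genes were called (3.10% higher, 0.763% lower). Insig1 was at 97.7 CPM after succinate then LPS and 6.48 and 11.3 CPM after DMM then LPS, and rose by 3.46 (SE 0.67, edgeR adjusted p = 0.00413). Of the 16 synthesis genes 9 rose, with a median of 2.38 against -0.04 over all genes. Fdps was at 58.0 CPM against 3.24 and 2.82 CPM (4.20, SE 0.70, adjusted p = 0.000801), and Sc5d at 69.3 CPM against 12.1 and 13.2 CPM (2.45, SE 0.49, adjusted p = 0.00251). Mvd, the decarboxylase of the mevalonate branch, was at 38.6 CPM against 6.48 and 5.64 CPM (2.64, SE 0.55, edgeR adjusted p = 0.00378), and Cyp51 at 44.3 CPM against 12.1 and 4.70 CPM (2.35, SE 0.51, adjusted p = 0.00483). For Fdps, Sc5d and Mvd the level after succinate then LPS lay within the range of the controls, and for Insig1 and Cyp51 below it. The synthesis sum of the succinate then LPS library was 676 CPM. The other 5 were Hmgcs1, Idi1, Fdft1, Sqle and Sc4mol, at 2.40 to 3.15. Dhcr7 (-0.33, from 3 counts after succinate then LPS) and Ebp (-0.86) were below 0 in value and were not called. Ch25h (2.23), Abcg1 (1.24) and Abca1 (1.11) were higher in value and not called.

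Of the other pathway genes 5 rose and 1 fell in that comparison. Among them Lpcat3 and Lrp1 rose by 2.06 and 1.78. Without DMM then LPS 48 h number 1 only the calls of Cyp51, Fdps, Mvd and Sc5d were kept. Without number 2 those of Hmgcs1 and Sqle were lost, and Abcg1, not called in the main fit, was called higher (2.09). With all 21 libraries 6 members were called. S100a8 was at 80.7 CPM after succinate then LPS against 12.1 and 12.2 CPM, and Il1b at 10498 CPM against 531 and 949 CPM, so that LPS genes outside the pathway differed between the same libraries.

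**Figure D5:**
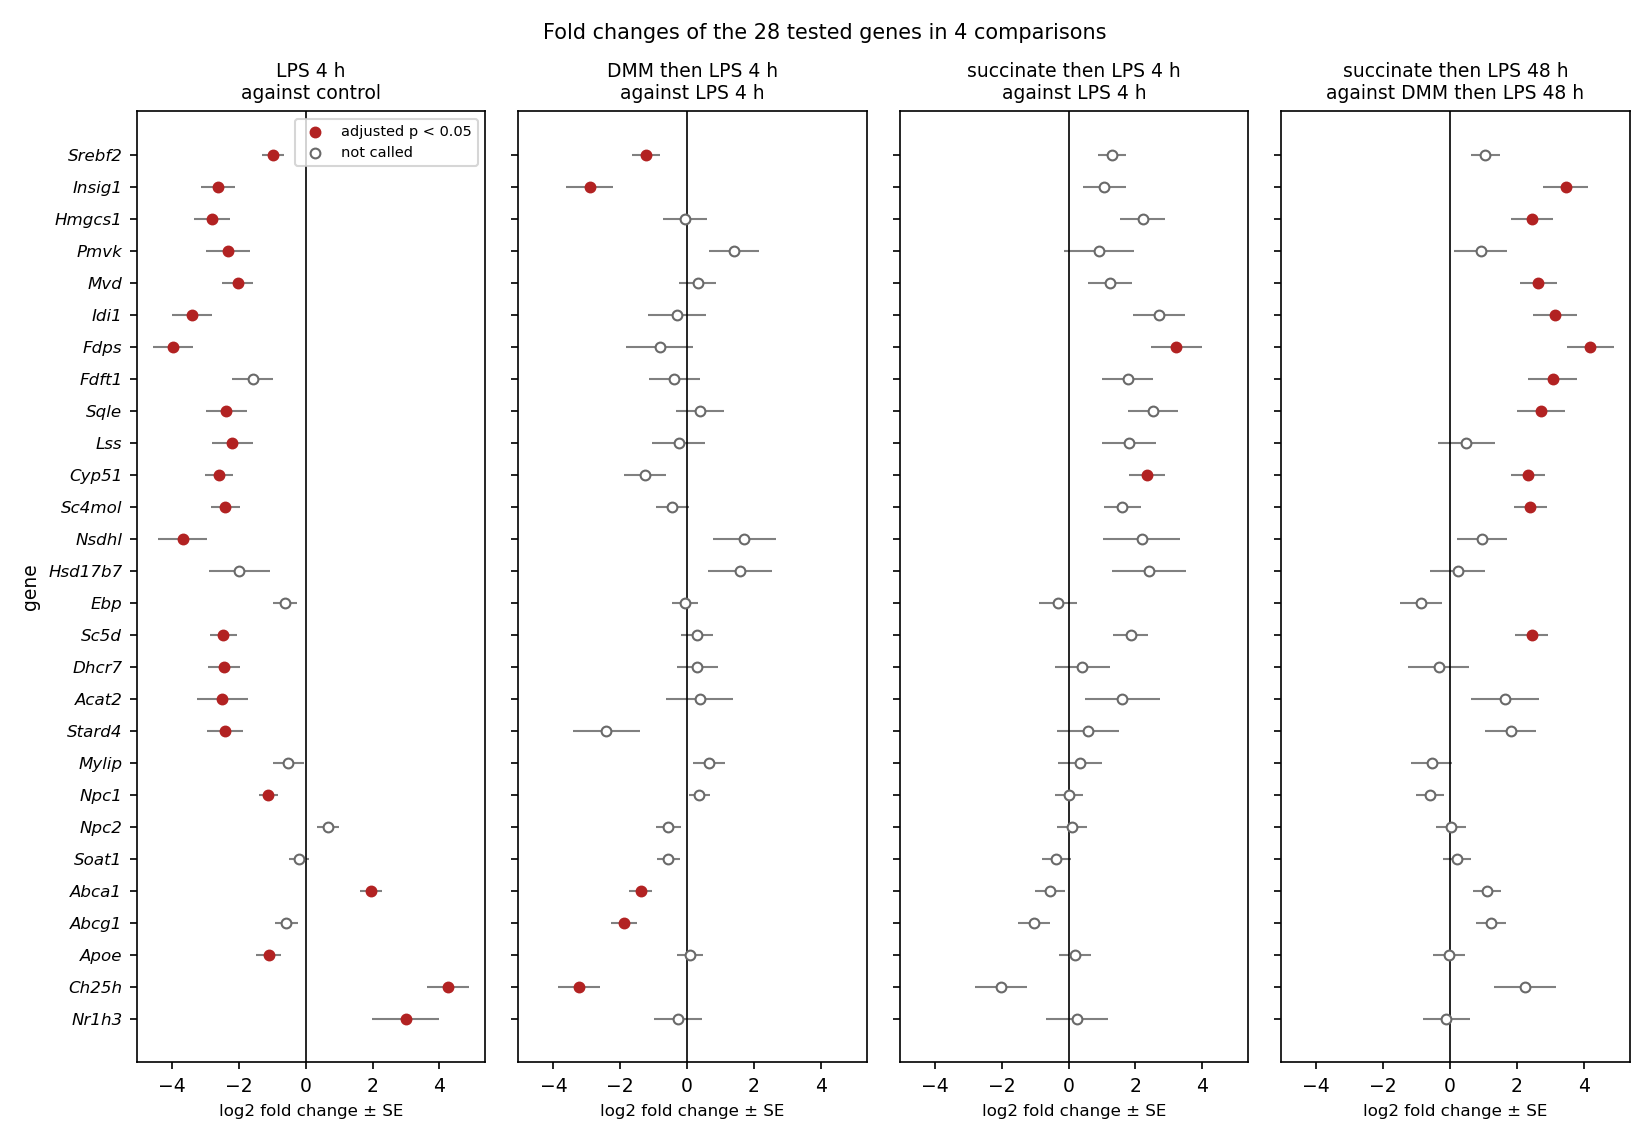
Log2 fold change ± SE (x axes) of the 28 tested genes (rows) in 4 comparisons; filled red points have an edgeR adjusted p under 0.05 and open points do not. LPS at 4 h has 18 filled points below 0, DMM then LPS against LPS has 5 filled points, none of them a synthesis gene, and succinate then LPS against DMM then LPS at 48 h has 10 filled points above 0.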

How the data were processed

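The authors deposited 1 table of read counts, 1 row per gene symbol and whole numbers throughout. Per the labels' protocols, libraries were full-length cDNA made by a modified SmartSeq2 method, with no molecular identifiers named, so intervals and floors cover counting error only. TopHat2, Bowtie, HTSeq and edgeR are named, per the submitters' processing notes, and their versions, settings and genome build are not given in the sources used. Total counts were 662186 to 1546867 per library, which limits the precision of genes with few counts. The members and lists were chosen with earlier results of these data known.

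A gene was tested if 2 or more libraries reached the CPM that 10 reads give in the median library and its counts summed to 15 or more, which left 6812 of 34573. In R 4.3.3, edgeR 4.0.16 (TMM scaling, robust quasi-likelihood test, two-sided) fitted 1 model of 9 group means to 20 libraries (11 residual degrees of freedom, common biological coefficient of variation 0.230). Deviations from the group mean of same-numbered libraries correlated at over 0.1 in 3 of 3 pairs between control and succinate (0.13 to 0.29). These were taken as paired in an alternative with the column number as a replicate block, fitted to the unstimulated libraries alone. Over all unstimulated groups a correlation over 0.1 held for 7 of 10 same-numbered and 5 of 30 other pairs. The hours of the libraries with LPS alone were read from the table's column names. Text names up to 4 called members per direction and role by smallest p, and others by count and range; genes named for their values in unstimulated cells, or as not called, were chosen after these were seen. Listed are also 25 other pathway genes and markers of macrophages, neutrophils, B cells, T and NK cells, stroma, dendritic and erythroid cells. Where a group had 1 to 3 counts and a ratio is given, it has an exact interval on counts. Uncalled genes with so few counts are given by their log2 difference alone. Counts over these lists include genes whose own values are not reported here. DESeq2 1.42.0 and other alternatives are in the closing section, and the scripts were tested on simulated data. In some comparisons DESeq2 adjusted over fewer genes than the 6812 of edgeR. They were 2586 for DMM against control, 3246 for DMM against succinate and 2058 for DMM then LPS against LPS at 48 h. Gene lengths came from GENCODE vM21.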

Additional observations from a re-analysis of the deposited data

Results flagged for a closer look

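The interaction between DMM and LPS at 4 h was called for 3 members, each a difference between responses with and without DMM: Ch25h (-5.39), Insig1 (-2.77) and Abca1 (-1.67), on the log2 scale by edgeR. Among 56 sets of 4 libraries of 1 group and gene, 2 held a library far from the other 3, and chance gives such a flag in about 1 of 20. Idi1 was at 53.5 CPM in succinate number 3, against at most 74.0 CPM in the group. Nr1h3 was at 4.17 CPM in succinate number 3 and at 0 in the other succinate libraries.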

How the results depend on the processing

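Over all alternatives, no called member changed direction. With median-of-ratios size factors all 97 called pairs of member and comparison stayed past the threshold, and with DESeq2 6 of 94 lost it. Counts of called members moved by over 1.5 times as follows. Without a filter on low counts they were 1 for DMM against control, 2 for DMM against succinate, 2 for DMM then LPS against LPS at 48 h and 8 for succinate then LPS against LPS at 4 h. With all 21 libraries they were 9 for LPS 48 h against control, 3 and 0 for DMM then LPS against LPS at 4 and 48 h, 0 for succinate then LPS against LPS at 4 h, 6 for succinate then LPS against DMM then LPS at 48 h and 1 for the interaction. With DESeq2 they were 1, 1 and 2 for DMM against control, DMM against succinate and DMM then LPS against LPS at 48 h. In a fit of the stimulated libraries alone they were 1 for LPS 48 h against 4 h, 8 for succinate then LPS against LPS at 4 h and 2 for DMM then LPS against LPS at 48 h, and the average over both times gave 8 in place of 2 for succinate then LPS. The 1 member for LPS 48 h against 4 h in the stimulated libraries alone was Nr1h3, higher by 2.34 on the log2 scale. The cause of these shifts was not tested.

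Leaving out each library in turn gave 14 to 21 called members for LPS 4 h against control, 12 to 13 for LPS 48 h against control, 0 to 1 for DMM against control, 0 to 0 for succinate against control and 0 to 1 for DMM against succinate. It gave 15 to 19 and 12 to 20 for DMM then LPS against DMM at 4 and 48 h, 0 to 4 and 0 to 1 for DMM then LPS against LPS at 4 and 48 h, 0 to 0 for succinate then LPS against LPS at 4 h and 4 to 9 for succinate then LPS against DMM then LPS at 48 h. It gave 0 to 0 for LPS 48 h against 4 h, 0 to 1 for DMM then LPS at 48 h against 4 h and 1 to 3 for the interaction. The labels give the column numbers no stated shared source in any unstimulated group. For DMM, same-numbered deviations correlated at over 0.1 in 2 of 3 pairs with control and 2 of 4 with succinate. A fit of the unstimulated libraries alone (5635 genes), with the column number as a replicate block, called 2 members for DMM against control (Abcg1 and Ch25h). It called 0 for succinate against control and 1 for DMM against succinate. Without the block the same libraries gave 0 in each of these comparisons. A fit of the stimulated libraries alone (5865 genes), with the number as a block within each time, called 5 for DMM then LPS against LPS at 4 h. Same-numbered deviations there correlated at 0.0044.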

Other observations

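The library labelled LPS 48 h number 1 entered no comparison of the report's main fit. In it Apoe was at 12512 CPM, Abcg1 at 238 CPM, Npc2 at 973 CPM, Soat1 at 183 CPM and Sc4mol at 66.2 CPM. In DMM number 2 these genes were at 11612, 256, 984, 233 and 69.3 CPM. Ighm was at 174 and 159 CPM in the same libraries.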
